A study of Mus musculus with 47 samples.

Results

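Acetylation of histone H3 at lysine 18 (H3K18ac) was mapped by chromatin immunoprecipitation with sequencing in control NMuMG cells. NMuMG is a mouse mammary epithelial line whose cells turn mesenchymal under transforming growth factor β1 (TGFβ1). The regions described here are the H3K18ac peaks of control cells given 5 ng/ml TGFβ1 for 48 h, with 20415 peaks, and of control cells left untreated (0 h), with 13226 peaks, from 1 library each. They are 2 of the 47 samples of the series, which also profiled other marks, SWI/SNF subunits and bZIP factors, in part in Pbrm1 knockout cells. Both groups carry the control genotype, and the labels do not say whether it is a clone or a pool. A 48 h peak that overlapped no 0 h peak by at least 1 bp was called gained and otherwise kept. A 0 h peak with no overlapping 48 h peak was called lost and otherwise kept. With 1 library per time there is no replicate spread and no test, and every interval below is an exact Clopper-Pearson 95% interval that covers counting error only.

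H3K18ac is placed chiefly by the acetyltransferases CBP (Crebbp) and p300 (Ep300), which also acetylate H3K27, and is removed by deacetylases that include SIRT7. It is found at active promoters, where H3K4me3 also lies, and at active enhancers, which usually lack H3K4me3. TGFβ1 acts through its receptors TGFBR1 and TGFBR2 on SMAD proteins, which bring CBP and p300 to DNA, and in mammary epithelial cells it turns keratin and junction genes down and genes of matrix, adhesion and the ZEB and SNAI repressors up. BRG1, the product of Smarca4, is the ATPase of SWI/SNF, moves nucleosomes and holds a bromodomain that binds acetylated histones.

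The promoters of 5 genes show the kinds of start that the results turn on, as windows of 300 bases that end shortly after a RefSeq start on GRCm38.p6, the assembly that mm10 names. They were picked after their values were seen. Capitals mark each CG dinucleotide. Tgfbr1 (chr4:47352972-47353271, + strand), the type I TGFβ receptor, had a peak over this window at 48 h only. Zeb2 (chr2:45110228-45110527, − strand), a repressor of epithelial genes, also had one at 48 h only. Crebbp (chr16:4213355-4213654, − strand) had one at both times. Hilpda (chr6:29272238-29272537, + strand), a lipid droplet protein, and Ddc (chr11:11898095-11898394, − strand), the aromatic amino acid decarboxylase, each had one at 0 h only.
Tgfbr1: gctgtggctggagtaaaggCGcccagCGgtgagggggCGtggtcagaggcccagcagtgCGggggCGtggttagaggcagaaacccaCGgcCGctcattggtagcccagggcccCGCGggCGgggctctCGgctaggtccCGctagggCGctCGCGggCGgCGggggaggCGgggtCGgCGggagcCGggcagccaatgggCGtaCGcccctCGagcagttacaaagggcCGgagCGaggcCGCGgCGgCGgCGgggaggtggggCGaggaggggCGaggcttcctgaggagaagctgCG
Zeb2: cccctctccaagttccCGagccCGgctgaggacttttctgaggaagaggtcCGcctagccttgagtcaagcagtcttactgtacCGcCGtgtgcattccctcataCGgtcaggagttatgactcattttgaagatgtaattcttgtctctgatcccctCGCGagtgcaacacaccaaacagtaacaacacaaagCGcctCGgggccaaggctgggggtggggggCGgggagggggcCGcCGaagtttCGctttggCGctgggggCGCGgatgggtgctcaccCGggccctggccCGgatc
Crebbp: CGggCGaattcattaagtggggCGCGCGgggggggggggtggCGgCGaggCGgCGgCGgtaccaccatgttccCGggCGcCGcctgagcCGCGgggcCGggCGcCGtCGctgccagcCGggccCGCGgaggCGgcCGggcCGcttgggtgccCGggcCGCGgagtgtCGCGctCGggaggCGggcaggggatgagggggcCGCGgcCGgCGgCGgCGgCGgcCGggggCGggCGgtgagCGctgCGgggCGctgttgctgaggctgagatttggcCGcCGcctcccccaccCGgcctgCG
Hilpda: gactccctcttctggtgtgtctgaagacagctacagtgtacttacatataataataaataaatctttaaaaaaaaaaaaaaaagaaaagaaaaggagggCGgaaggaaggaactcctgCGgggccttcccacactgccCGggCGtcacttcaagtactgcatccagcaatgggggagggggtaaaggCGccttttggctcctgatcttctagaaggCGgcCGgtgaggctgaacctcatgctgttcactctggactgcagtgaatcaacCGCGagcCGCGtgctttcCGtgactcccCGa
Ddc: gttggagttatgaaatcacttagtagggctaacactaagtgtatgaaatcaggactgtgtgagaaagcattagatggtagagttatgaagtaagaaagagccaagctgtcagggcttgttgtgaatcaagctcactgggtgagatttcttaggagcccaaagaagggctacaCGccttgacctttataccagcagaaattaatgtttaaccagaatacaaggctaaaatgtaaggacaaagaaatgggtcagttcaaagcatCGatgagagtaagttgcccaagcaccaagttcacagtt
These windows held 34 CG dinucleotides in Tgfbr1, 19 in Zeb2, 49 in Crebbp, 13 in Hilpda and 2 in Ddc. The median over all 21263 windows was 13.

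The same contrast ran through all promoters. The 4365 windows with a peak at 48 h only held a median of 29 CG dinucleotides, against 13 in the 152 windows with a peak at 0 h only. The 657 windows with a peak at both times had a median of 34, and the 16089 windows with neither had 7. Starts that carried H3K18ac only after TGFβ1 were therefore CG-rich, and those that carried it only before were at the median of all starts. The AP-1 letters TGANTCA, with N any base, were read on both strands. They were present in 2.98% of the windows with a peak at 48 h only, in 9.21% (95% interval 5.13 to 15.0) of those at 0 h only and in 6.99% of all. Zeb2, Hilpda and Ddc among the printed windows hold them. The SNAI and ZEB letters CACCTG were found in 17.8% at 48 h only, 18.4% at 0 h only and 19.7% of all, and the TEAD letters GGAATG in 9.78% of the windows with a peak at 48 h only, 12.5% of those at 0 h only and 13.6% of all. A match describes these letters only and shows no binding.

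Gained peaks outnumbered lost peaks. Of the 48 h peaks, 14419 were gained, which is 70.6% (70.0 to 71.3), and 5996 were kept. Of the 0 h peaks, 6973 were lost, which is 52.7% (51.9 to 53.6), and 6253 were kept. The log2 ratio of the numbers of peaks, 48 h over 0 h, was 0.63 (0.59 to 0.66), and the peaks covered 11.9 Mb at 48 h and 5.73 Mb at 0 h. Most gained peaks were not edges of 0 h peaks: the median distance from a gained peak to the nearest 0 h peak was 31.2 kb, and 17.7% lay within 2 kb of one. For lost peaks the median distance to a 48 h peak was 13.1 kb, and 25.5% lay within 2 kb.

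Several values of the libraries move with time and stand beside every count here. The depth of the libraries is unknown, so list length cannot be corrected for it. The median pileup of a peak was 23 at 48 h and 13 at 0 h, and the median width was 467 bp at 48 h and 345 bp at 0 h. The 0 h list has a header and values rounded to 2 decimals while the 48 h list has neither. The series holds separate input libraries for 0 h and 48 h, so treatment and these differences cannot be told apart. In the other acetyl marks of the same cells the numbers moved in different directions: H3K14ac had 35270 peaks at 48 h and 3453 at 0 h, and its 0 h list has the same format as that of H3K18ac, while H3K27ac had 15962 at 48 h and 20507 at 0 h. Defining epithelial genes carried the mark within 2 kb of their start in 5 of 10 cases at 48 h and 3 of 10 at 0 h. Markers of endothelial, blood, muscle, neural, liver, pancreas and fat cells did so in 0 of 23 cases at 48 h and in 1 of 23 at 0 h, the muscle gene Myog. Counted over a wider window around each gene, the epithelial genes had the mark in 6 of 10 cases at 48 h and 4 at 0 h. The markers of other cells had it there in 6 of 23 cases at 48 h and 8 at 0 h.

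The strongest peaks within the 48 h list lay at H3K4me3, and most of the strongest within the 0 h list did not. Strength is the authors' fold enrichment of ChIP over input at a peak, which ranks peaks within a list only, since its scale moves with depth and input. Within the 48 h list 3357 peaks reached 20-fold, of which 2147 gained and 1203 kept peaks overlapped H3K4me3 of untreated cells, and the highest reached 290-fold. Within the 0 h list 43 peaks reached 20-fold, of which 4 kept and 0 lost peaks did, and the highest reached 56.5-fold. How much of the difference in these numbers comes from depth and input was not tested. Of the 2148 gained peaks of at least 20-fold, 2147 overlapped an H3K4me3 peak that was already present at 0 h. Gained peaks at H3K4me3 (5252) had a median of 14.7-fold within the 48 h list, and gained peaks outside it (9167) had 4.36-fold. Nearly all gained peaks at H3K4me3 (90.1%) lay within 2 kb of a gene start.

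**Figure D1:**
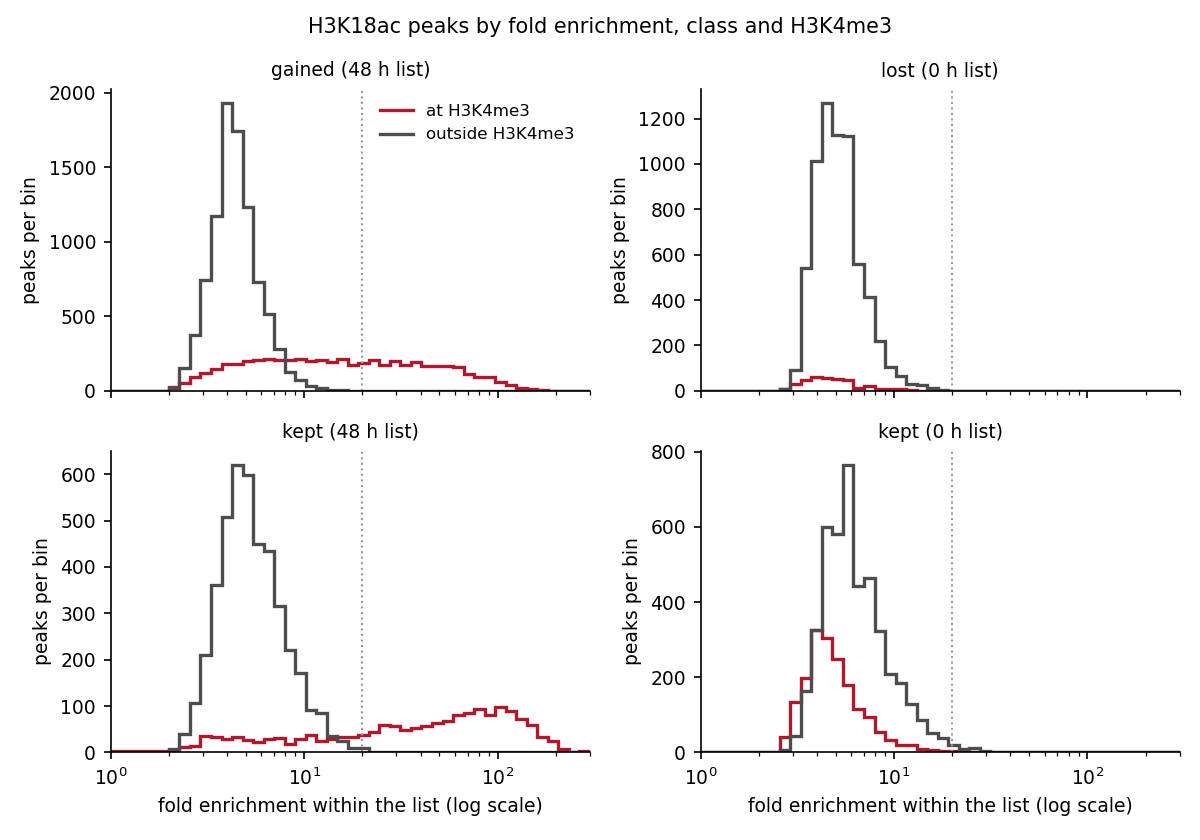
Number of H3K18ac peaks (vertical axis) by the authors' fold enrichment within the list (horizontal log axis) for gained and kept peaks of the 48 h list (left) and lost and kept peaks of the 0 h list (right), at H3K4me3 of untreated cells (red) and outside it (grey), with a dotted line at 20-fold. The red curves reach far past the line at 48 h, where 2147 gained and 1203 kept peaks at H3K4me3 lie at or above it, while 4 kept and 0 lost peaks at H3K4me3 do at 0 h.

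Peaks found at both times stood in a different order in each list. Within the 48 h list the 1795 kept pairs at H3K4me3 had a median of 48.3-fold and the 4458 outside it had 5.26-fold, so kept peaks at H3K4me3 were the stronger kind. Within the 0 h list the same pairs had a median of 4.6-fold at H3K4me3 and 5.98-fold outside it, so they were the weaker kind. The lists differ in length and pileup, so a peak's place in one list is not set against its place in the other. Spearman's rank correlation between both folds, as a description, was 0.10 over the pairs at H3K4me3 and 0.30 over those outside it. Pairs share their libraries, and 345 kept 48 h peaks cover more than 1 kept 0 h peak.

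**Figure D2:**
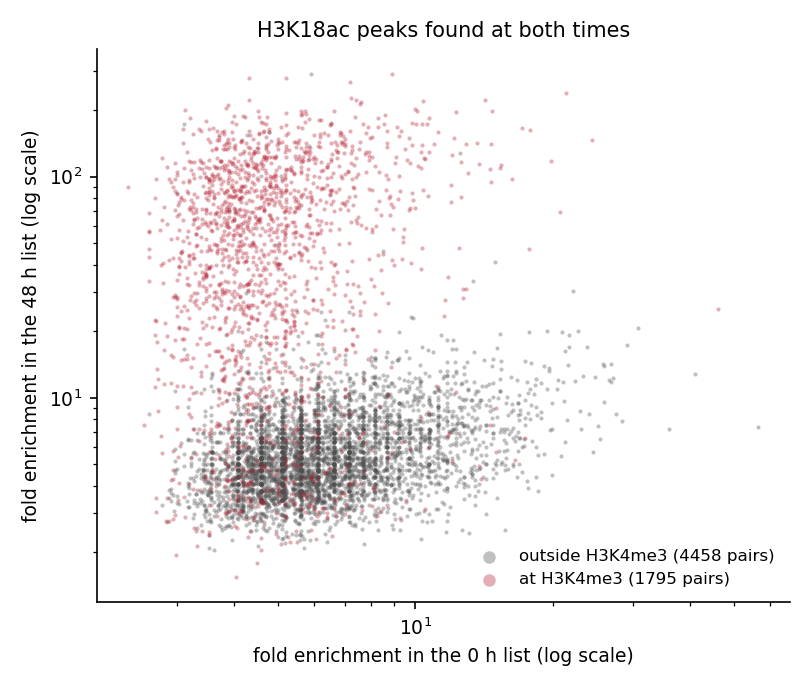
Authors' fold enrichment at 48 h of the strongest peak over each kept 0 h peak (vertical log axis) against the fold enrichment of that 0 h peak (horizontal log axis), for 1795 pairs at H3K4me3 of untreated cells (red) and 4458 outside it (grey). Most red points lie in a band around the median of 48.3-fold at 48 h while their 0 h values lie around 4.6-fold, and grey points cluster near 5.26-fold at 48 h and 5.98-fold at 0 h.

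The 10 strongest gained peaks included peaks at Usp42 (a deubiquitinase, 194-fold within the 48 h list), Lemd2, the shared start of Yrdc and 1110065P20Rik, Zbtb10, Gapvd1, Garre1, Itgav, Arglu1 and Zfp217 (161-fold). All 10 overlapped H3K4me3 at 0 h and H3K27ac at both times, 9 of 10 overlapped BRG1, and 8 of 10 lay within 2 kb of a gene start. The Itgav peak (chr2:83724222-83725384 in mm10, at 165-fold) sits at the start of the gene of integrin αv, which activates latent TGFβ at the cell surface. Kept peaks went higher: Furin, the protease that matures pro-TGFβ, reached 290-fold and Tab2, an adaptor of the TAK1 kinase, 279-fold, both at their starts.

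Lost peaks lay away from starts. Of the gained peaks 36.1% (35.3 to 36.8) lay within 2 kb of the start of a protein-coding gene, against 12.4% (11.6 to 13.2) of the lost peaks. Kept peaks had 30.2% in the 48 h list and 30.3% in the 0 h list. Outside genes lay 36.3% of gained and 52.9% of lost peaks. The strongest lost peak was inside Vav3 (chr3:109513822-109514115, 28.2-fold within the 0 h list), a guanine nucleotide exchange factor, 59892 bp from the nearest start. Others among the 10 strongest were inside Rbm47 (19.0-fold), which encodes an RNA-binding protein, inside Hydin, near Ywhaz, Stmn1, Tprg, Lmo4 and Tex37, and at 2 sites with no gene within 100 kb. None of the 10 lay within 2 kb of a start, none overlapped H3K4me3, and 5 overlapped H3K27ac at 0 h and none at 48 h. At the start of Vav3 itself a peak of 49.5-fold was gained, so loss inside the gene and gain at its start stood side by side.

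From 8-fold up, distal gained and lost H3K18ac peaks had H3K27ac at their own time only more often than kept peaks did. Below 8-fold they did not. Outside H3K4me3, 1209 of 9167 gained peaks overlapped H3K27ac at 48 h only, 133 overlapped it at 0 h only and 36 at both times. Of the 6609 lost peaks 109 overlapped it at 48 h only, 549 did so at 0 h only and 38 at both times. At 48 h only, H3K27ac lay at 13.2% of distal gained and 29.9% of distal kept peaks of the 48 h list. At 0 h only, it lay at 8.31% of distal lost and 8.12% of distal kept peaks of the 0 h list. These shares differed with strength. Among gained peaks under 5-fold within the 48 h list 5.68% had H3K27ac at 48 h only, from 5- to 8-fold 25.1%, from 8- to 12-fold 79.3% and at or above 12-fold 17 of 18. Among lost peaks the share with H3K27ac at 0 h only was 5.92% under 5-fold, 7.38% from 5- to 8-fold, 25.8% from 8- to 12-fold and 61.2% (41 of 67) at or above 12-fold. Over the same steps, kept peaks of the 48 h list had 14.6%, 36.9%, 62.0% and 46.3% at 48 h only. Kept peaks of the 0 h list had 6.88%, 7.44%, 11.7% and 9.15% at 0 h only. Gained and lost peaks thus stood above kept peaks from 8-fold up only. The H3K27ac lists come from other libraries, with fewer peaks at 48 h than at 0 h, so the numbers of H3K27ac peaks moved against the H3K18ac gain. Most distal peaks of either class, over all strengths, overlapped no H3K27ac peak at either time: 85.0% of gained and 89.5% of lost peaks outside H3K4me3.

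**Figure D3:**
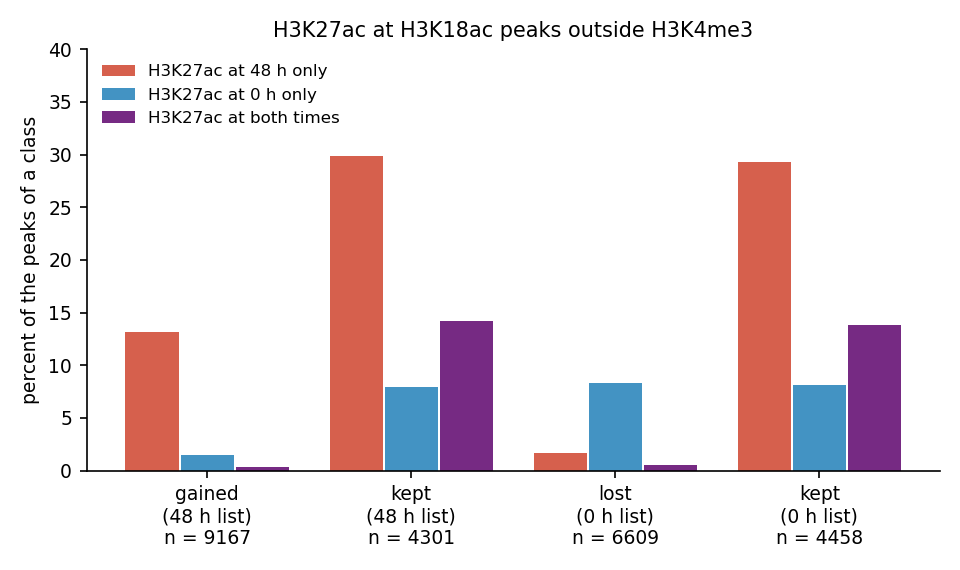
Percent of the H3K18ac peaks outside H3K4me3 (vertical axis) that overlapped an H3K27ac peak at 48 h only, at 0 h only or at both times, for gained and kept peaks of the 48 h list and lost and kept peaks of the 0 h list (horizontal axis, with the number of peaks). Gained peaks had 13.2% at 48 h only and 1.45% at 0 h only, lost peaks had 1.65% at 48 h only against 8.31% at 0 h only, and kept peaks of the 48 h list had 29.9% at 48 h only.

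Kept distal peaks also leaned to H3K27ac at 48 h. Of the 4458 kept 0 h peaks outside H3K4me3, 1305 (29.3%) overlapped H3K27ac at 48 h only, 362 (8.12%) at 0 h only and 617 (13.8%) at both times. The distal sites with the strongest 0 h signal carried it throughout: of 306 at or above 12-fold in the 0 h list, 222 (72.5%) had H3K27ac at both times. Among these strongest kept peaks were one inside Runx2 (28.4-fold), a transcription factor of bone, one inside Crybg1 (27.1-fold) and one 2610 bp from Junb (26.9-fold), a subunit of AP-1. The strongest gained peaks outside H3K4me3 lay near Rab38 (20.4-fold within the 48 h list), inside Fam189a1, Adamts12, Vmp1 and 1700001F09Rik, and near Gja5, Clvs1 and Pdgfc, a growth factor of the PDGF family. All 10 overlapped H3K27ac at 48 h, 9 of them at 48 h only, and 1 overlapped BRG1.

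At promoters nearly all gained peaks carried H3K27ac at both times. Of the gained peaks at H3K4me3, 99.2% overlapped H3K27ac at both times and 33.5% overlapped H3K14ac at both. H3K14ac at 48 h only lay at 66.4% of gained and 84.1% of lost peaks at H3K4me3. The H3K14ac lists themselves held 35270 peaks at 48 h and 3453 at 0 h. The 364 lost peaks at H3K4me3 were of another kind. H3K27ac was present there at 0 h in 95.6% and at 48 h in 61.8%, against 99.4% at 48 h for gained peaks at H3K4me3. PHF10, a subunit of the PBAF form of SWI/SNF, was found at 0 h at 86.9% of gained and 5.22% of lost peaks at H3K4me3, where its peaks are those present in both of its replicate lists. FOSL2 at 48 h, an AP-1 subunit, overlapped 2.18% of gained, 4.67% of kept and 1.03% of lost peaks outside H3K4me3.

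BRG1 of untreated cells lay at 34.5% (33.7 to 35.3) of gained peaks and at 28.5% (27.5 to 29.6) of lost peaks, and at 56.3% and 53.8% of kept peaks of the 48 h and 0 h lists. The order of gained and lost turned with place: at H3K4me3 BRG1 lay at 65.1% of gained and 51.1% of lost peaks, and outside it at 17.0% of gained and 27.3% of lost peaks. It also turned with the BRG1 threshold. With the 1812 of 29215 BRG1 peaks that had a −log10 q of at least 5, of which 9.05% lie at H3K4me3, the share was 1.66% of gained and 4.07% of lost peaks, and 7.19% of kept peaks in the 48 h list. In each of these comparisons kept peaks of the same list had the higher share. BRG1 was mapped in untreated cells only, after double crosslinking and with a looser threshold than H3K18ac, so whether it moved with TGFβ1 is not measured here.

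Strength sorted BRG1 differently on each side. Among gained peaks outside H3K4me3, BRG1 lay at 18.5% of those under 5-fold and at 12.8% of those from 8- to 12-fold. At or above 12-fold it lay at 11.1% of 18 peaks. Among lost peaks outside H3K4me3 it lay at 25.4% under 5-fold, at 42.1% from 8- to 12-fold and at 53.7% at or above 12-fold. Strong distal peaks that were gained seldom had a BRG1 peak before treatment, and strong distal peaks that were lost often did. The rise was not particular to lost peaks: distal kept peaks of the 0 h list went from 39.9% under 5-fold to 61.8% at or above 12-fold. Distal kept peaks of the 48 h list had 48.4% under 5-fold, 40.6% from 8- to 12-fold and 47.8% at or above 12-fold. Seen from BRG1, of its 7556 sites within 2 kb of a gene start 40.6% carried H3K18ac at 48 h only, 2.83% at 0 h only and 19.0% at both times. Of its 21659 sites further away 6.61% carried it at 48 h only, 5.86% at 0 h only and 80.6% at neither time.

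**Figure D4:**
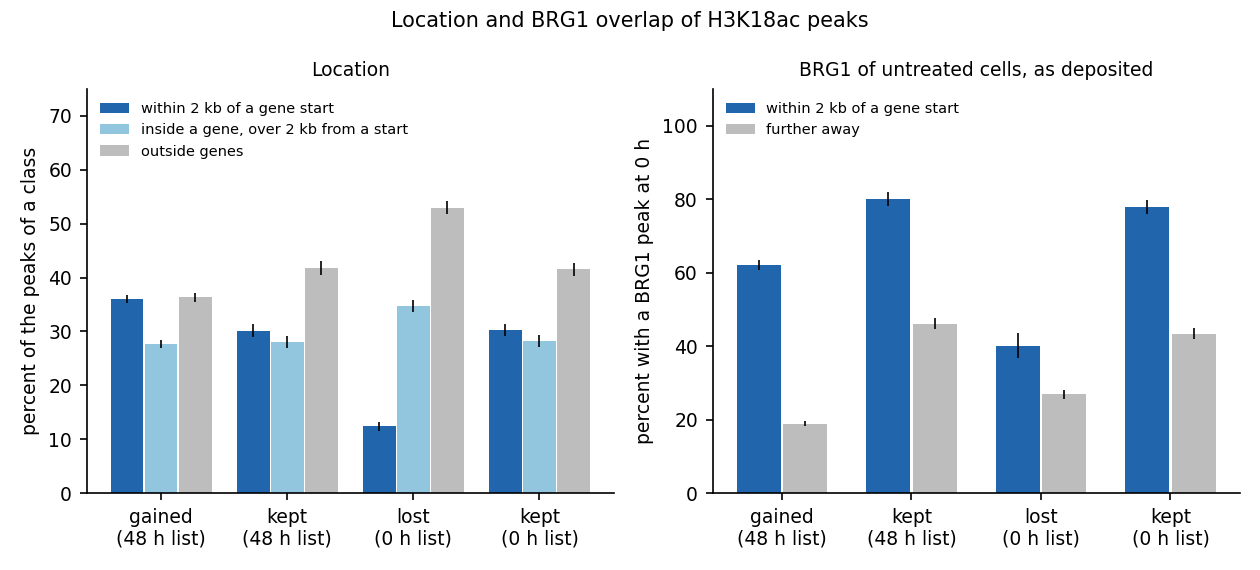
Left, percent of H3K18ac peaks of each class (vertical axis) within 2 kb of a gene start, inside a gene further from a start, and outside genes. Right, percent with a BRG1 peak of untreated cells, split by distance from a start, with error bars for exact 95% intervals in both panels. Lost peaks have the lowest share near starts (12.4%), and near starts BRG1 lies at 62.1% of gained, 80.0% of kept (48 h list) and 40.2% of lost peaks, while further away it lies at 18.9%, 46.1% and 26.9%.

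Genes followed the peaks. Of 21887 protein-coding genes, 4910 (22.4%) had H3K18ac within 2 kb of a start at 48 h only, 415 (1.9%) had it at 0 h only and 2074 (9.48%) at both times. Nearly all gained starts were already marked otherwise: 97.1% had H3K27ac and 97.7% had H3K4me3 at both times. Lost starts differed, with H3K27ac at both times in 51.8% and at 0 h only in 23.4%. Over the whole gene and 10 kb to either side, 5388 genes (24.6%) had peaks at 48 h only, 848 (3.87%) had them at 0 h only and 4478 (20.5%) at both times. Of all genes 6992 (31.9%) had more peaks at 48 h while 1818 (8.31%) had fewer. Among the 13589 genes with H3K4me3 at the start at both times, which resemble the lists below more than all genes do, 35.3% had a gained start, 2.03% a lost one and 14.6% a start with peaks at both times.

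Nearly every gene of the TGFβ pathway carried H3K18ac. Of 34 genes, 14 (41.2%) had a gained start, 1 (2.94%) a lost one and 15 (44.1%) a start with peaks at both times. Over all genes these shares were 22.4%, 1.9% and 9.48%. Among genes with H3K4me3 at the start at both times they were 35.3%, 2.03% and 14.6%. Among receptors, Tgfbr1 (88.4-fold within the 48 h list) and Tgfbr2 (16.8-fold), the type II receptor, had peaks at 48 h only, while Bmpr1a and Acvr1 had peaks at both times (140-fold and 127-fold at 48 h, and 6.92-fold and 7.76-fold at 0 h). Among ligands, Tgfb1 (24.2-fold) and Tgfb2 (26.4-fold) had gained starts and Tgfb3 had no peak. Of the SMADs, Smad1 (47.8-fold) and the inhibitory Smad6 (50.7-fold) were gained. Smad4, the common SMAD, had a start at both times (143-fold within the 48 h list and 6.89-fold within the 0 h list).

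Of the 34 pathway genes 19 had more peaks at 48 h than at 0 h and 8 had fewer, against 31.9% and 8.31% of all genes. Feedback genes stood on both sides. Pmepa1, which sequesters SMADs, had 12 peaks at 48 h and 7 at 0 h, with a start of 199-fold within the 48 h list and 14.7-fold within the 0 h list. The inhibitory Smad7 had 10 peaks at 48 h and 6 at 0 h. Smad6 had 2 at 48 h and none at 0 h. Skil, a SMAD corepressor, had 1 peak at 48 h and 2 at 0 h, all over sites marked at both times, with a start of 172-fold within the 48 h list and 10.6-fold within the 0 h list. Smurf2, a ubiquitin ligase of the pathway, also had 1 at 48 h and 2 at 0 h. Ltbp1, which anchors latent TGFβ in the matrix, had 32 peaks at 48 h and 14 at 0 h. The Id genes, targets of BMP signalling, were mixed: Id1 had 2 peaks at 48 h and 6 at 0 h, and Id3 had 2 at 48 h and 1 at 0 h. Id2 had 2 at 48 h and 4 at 0 h, with the only lost start of the list, at 11.7-fold within the 0 h list. That start was called lost because no 48 h peak lay within 2 kb of it. Of the 4 Id2 peaks at 0 h only 1 was itself lost, and 0 of the 2 at 48 h were gained. The lost start therefore does not show that the 11.7-fold peak was lost.

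Mesenchymal genes had gained starts in 18 of 45 cases (40%), lost starts in none, and starts at both times in 6 (13.3%). Among genes with H3K4me3 at the start at both times these shares were 35.3%, 2.03% and 14.6%, and over all genes 22.4%, 1.9% and 9.48%. More peaks at 48 h were found for 23 of 45 and fewer for 5, against 31.9% and 8.31% of all genes. Zeb2 was the strongest gene with peaks at 48 h only (105.7-fold), and Zeb1, its relative, had a start at both times (138-fold within the 48 h list and 7.01-fold within the 0 h list). Snai1, the repressor of E-cadherin, had 4 weak peaks at 48 h and none at 0 h (strongest 4.90-fold), and Snai2 and Twist1 had none. Matrix genes divided: Col4a1 had 5 peaks at 48 h and none at 0 h, Thbs1 had 4 at 48 h and none at 0 h, and Col5a1 had 1 at 48 h (23.3-fold) and none at 0 h, while Fn1, Col3a1, Postn and Tnc had no peak at either time. Integrins of this list differed: Itga5 had 7 peaks at 48 h and 1 at 0 h, Itgav 7 at 48 h and 2 at 0 h, and Itgb1 3 at 48 h and 2 at 0 h. Itgb6, an epithelial integrin subunit, had 14 at 48 h and 15 at 0 h. Tgfbi, a secreted matrix protein, had no peak at 48 h and 1 at 0 h.

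Epithelial genes had gained starts in 10 of 40 cases (25%), lost starts in 2 (5%) and starts at both times in 8 (20%). Over all genes these shares were 22.4%, 1.9% and 9.48%. Among genes with H3K4me3 at the start at both times they were 35.3%, 2.03% and 14.6%. Over the whole gene and 10 kb to either side 10 of 40 had peaks at 48 h only, and 17 had more peaks at 48 h while 8 had fewer (31.9% and 8.31% of all genes). Peaks at 0 h only were found at 4 of 40 (10%): Krt19, Marveld3, Ap1m2 and Krt5. This share was 3.87% over all genes, 5% of 20 housekeeping genes and 16% of 25 genes of other cell types. Krt19, a simple epithelial keratin, had no peak at 48 h and 3 at 0 h (strongest 7.41-fold), and its H3K27ac was also present at 0 h only. Marveld3, a tight junction protein, had no peak at 48 h and 2 at 0 h (strongest 9.57-fold). Spint2, an inhibitor of matriptase, had 1 peak at 48 h and 5 at 0 h, and Tjp1, a scaffold protein of tight junctions, had 4 at 48 h and 8 at 0 h. Cdh1, which encodes E-cadherin, went the other way with 12 peaks at 48 h and 7 at 0 h and a gained start of 14.8-fold. Cldn4, a claudin, had 6 peaks at 48 h and none at 0 h, and Esrp1, a splicing factor of epithelial cells, had 2 at 48 h and none at 0 h. The epithelial genes therefore did not share a direction.

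Targets of YAP and TEAD all had a peak in the gene or within 10 kb, with 10 of 24 starts (41.7%) gained, 13 (54.2%) at both times and none lost. Genes with H3K4me3 at the start at both times had 35.3% gained and 14.6% at both times. More peaks at 48 h than at 0 h were found for 18 of 24 and fewer for 1, Axl, against 31.9% and 8.31% of all genes. Ccn2, the matricellular protein CTGF, had 8 peaks at 48 h and 2 at 0 h. Lats2, a kinase that inhibits YAP, had its start at 151-fold within the 48 h list and 6.18-fold within the 0 h list. Igfbp3 (40.2-fold) and Fjx1 (55.6-fold) had peaks at 48 h only. Of the 20 AP-1 and ATF genes, 5 (25%) had gained starts, 10 (50%) starts at both times and none a lost one. Jdp2 (63.0-fold), a repressor of AP-1, and Mafk (21.1-fold) had peaks at 48 h only. Fosl2 had 3 peaks at 48 h and 4 at 0 h, Fosb had 2 at 48 h and 2 at 0 h, and Atf3 had none at either time.

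Of 28 genes of the acetylation machinery itself, 8 (28.6%) had a gained start, 16 (57.1%) a start with peaks at both times and none a lost one. Genes with H3K4me3 at the start at both times had 35.3% gained, 14.6% at both times and 2.03% lost. Crebbp had its start at 109-fold within the 48 h list and 14.6-fold within the 0 h list, and Ep300 at 86.7-fold within the 48 h list and 10.4-fold within the 0 h list. Among deacetylases, Hdac7 was the strongest (239-fold at 48 h and 21.4-fold at 0 h), and Hdac5 (69.9-fold) and Hdac2 (62.0-fold) had peaks at 48 h only. Sirt7, which removes H3K18ac, had a gained start of 21.8-fold. Ncoa1, a nuclear receptor coactivator, was gained at 55.8-fold. Of the 28 SWI/SNF genes 11 (39.3%) had gained starts, 12 (42.9%) starts at both times and none a lost one. Smarca4 had its start at 13.8-fold within the 48 h list and 4.16-fold within the 0 h list, Pbrm1 at 116-fold within the 48 h list and 4.42-fold within the 0 h list, and Phf10 at 40.3-fold at 48 h only.

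**Figure D5:**
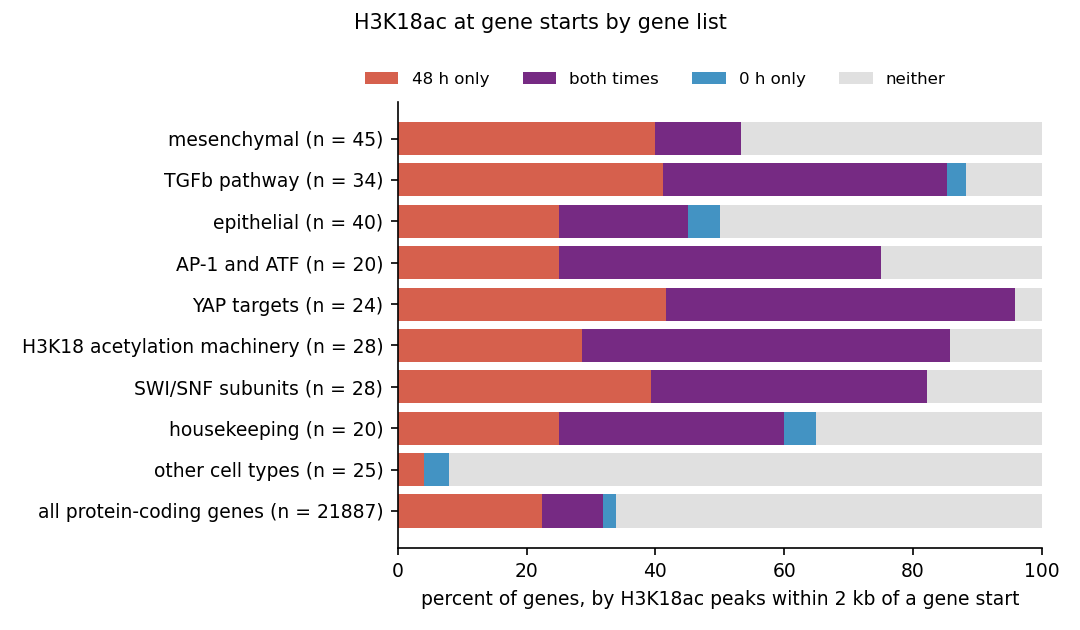
Percent of the genes of each list (horizontal axis) with H3K18ac within 2 kb of a gene start at 48 h only, at both times, at 0 h only or at neither time, with all protein-coding genes at the bottom. Gained starts make up 40.0% of mesenchymal, 41.2% of TGFβ pathway and 41.7% of YAP target genes, 25.0% of epithelial and of housekeeping genes, and 22.4% of all genes. They make up 35.3% of genes with H3K4me3 at the start at both times, which are not drawn.

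Housekeeping genes set the scale for these lists: 5 of 20 had gained starts, 7 starts at both times and 1, Polr2a, a lost one. Genes of other cell types had a gained start in 1 of 25 cases, Pparg, and a lost one in 1, Myog. The lists were made by hand and hold many expressed genes, and nothing here is particular to any of them.

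Some genes collected many separate peaks, and the following were picked for their counts. Itgb3, the integrin β3 subunit, had 24 peaks at 48 h and 4 at 0 h, of which 20 at 48 h and 0 at 0 h had no overlap at the other time. Apbb2 and the liprin gene Ppfibp1 each had 20 peaks at 48 h and 1 at 0 h, and Nav2 had 19 at 48 h and 3 at 0 h. At the other end Slc16a12, a monocarboxylate transporter, had 4 peaks at 48 h and 21 at 0 h, and Oxr1 had 7 at 48 h and 19 at 0 h. Aldh1a1, a retinaldehyde dehydrogenase, had 4 at 48 h and 12 at 0 h, and Rhobtb1 had 1 at 48 h and 10 at 0 h. At Rhobtb1 the single 48 h peak was strong (40.9-fold within the 48 h list) and lay at the start, while 9 of the 10 peaks at 0 h had no counterpart. Several of these genes are long, and a long gene can hold more peaks.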

How the data were processed

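The deposited H3K18ac peak lists of control NMuMG cells, 1 per time and with no pooling recorded, were the starting point. Per the labels' protocols, cells for histone marks were fixed with formaldehyde and cells for BRG1, PHF10 and ATF3 with disuccinimidyl glutarate and then formaldehyde. Per the submitters' processing notes, MACS3 3.0.0a7, Bowtie2 2.3.3, fastp 0.19.5, deepTools 3.5.1 and Partek 11.0.24.0325 were used with mm10, and their roles and settings are not given in the sources used here. Each peak has a deposited pileup signal (its stacked reads). Its deposited −log10 p-value and q-value were called against the input, and the lists reach down to a −log10 q of 1.31 at 48 h and 1.30 at 0 h. A ratio of ChIP to input, the fold enrichment deposited by the authors, was used within a list only. Per the file headers, the 0 h list has a summit and a length for each peak, and the 48 h list has the same columns without a header. Depth is not given, and high-signal regions were not removed (the highest pileup was 24706 at 48 h and 26915 at 0 h).

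Peaks on the assembled chromosomes were kept, which left out 3 peaks at 48 h and 5 at 0 h. Overlap of 1 bp, exact intervals and gene assignment were computed with Python 3.11.15, numpy 2.4.6, pandas 2.3.3 and scipy 1.17.1 and checked on simulated lists. Coordinates are as the lists give them, so a start may be off by 1 bp. Genes were those of the RefSeq table of GRCm38.p6: starts came from its promoter table for 17492 of 21887 genes, either gene end stood for the start in the other 4395, and exons and introns were not assigned. All 261 listed symbols were matched. A gene start or gene was called gained with a peak at 48 h only and lost with one at 0 h only. The regions and gene lists were chosen with earlier results of these data known. Named genes were list members with peaks at 1 time only (up to 15 per time, by fold), the 10 strongest gained and lost peaks, the 3 strongest kept starts per list and the genes of the proteins studied, and other genes were named after their values were seen. Some genes that the rule takes are not reported here by name. Alternatives were a −log10 q of at least 5, a fold of at least 5, lists of equal length, peaks merged within 1 kb, overlap of 50%, all sequences and other gene windows.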

Additional observations from a re-analysis of the deposited data

How the results depend on the processing

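Of 40 alternatives run, 9 stayed within the counting interval or within 1.5 times the count of genes and 31 moved further, and the cause was not tested. The log2 ratio of peak numbers was 1.17 with a −log10 q of at least 5, 0.56 with a fold of at least 5 and 0.58 after merging peaks within 1 kb. The share of 48 h peaks gained was 77.8%, 77.4% and 68.5% under the same settings, 65.5% with lists of equal length, 72.0% with an overlap of 50% of the shorter peak, and 58.1% when peaks within 2 kb counted as overlapping, an alternative chosen after seeing the data. The share of 0 h peaks kept was 51.0%, 34.4%, 48.7%, 36.7%, 45.1% and 60.7% under those settings in that order. Gained peaks lay near a start in 47.4% with the stricter q, 54.7% with lists of equal length, 33.9% with a window of 1 kb and 40.3% with one of 5 kb, and lost peaks in 13.5% with the stricter q, 9.19% with 1 kb and 20.6% with 5 kb. BRG1 lay at 44.7% of gained and 40.0% of lost peaks with the stricter q for H3K18ac, at 46.0% and 31.0% with lists of equal length, at 28.8% and 21.2% with an overlap of 50%, and at 1.66% and 4.07% with the stricter q for BRG1, which turned their order. Lost genes numbered 415 in the start window and 848 in the wider one. No paired analysis was possible because each time has 1 library. Unknown depth limits every comparison of list length.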

Other observations

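Core histone genes of the replication-dependent clusters, which supply H2A, H2B, H3 and H4 in S phase, had fewer H3K18ac peaks at 48 h, and their lost starts were all on chromosome 13. They were picked by name after their values were seen. Of the 47 such genes on chromosome 13, 0 had a gained start, 21 had a lost start and 21 had a start with peaks at both times, while 1.9% of all genes had a lost start. All 10 on chromosome 3 had a start with peaks at both times. Peaks were more numerous at 48 h for 0 of the 57 genes and fewer for 49, against 31.9% and 8.31% of all genes. On chromosome 13 the genes and the 10 kb around them held 16 peaks at 48 h and 59 at 0 h, of which 5 of the 48 h peaks were gained and 47 of the 0 h peaks lost, and on chromosome 3 they held 8 at 48 h and 11 at 0 h. Of the 21 lost starts, 18 had H3K27ac at both times, 1 had it at 0 h only and 2 had it at neither time. The strongest 0 h peak reached 17.4-fold within the 0 h list and lay beside H2ac6 and H2bc4. It was a kept peak, overlapping a 48 h peak of 6.60-fold within the 48 h list. These genes are near-identical copies that lie close together, so reads may be shared between them and 1 peak can count for several genes.

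The gain was uneven over chromosomes. Chromosome 19 had 973 peaks at 48 h and 813 at 0 h, a log2 ratio of 0.26, the lowest of 20 chromosomes, and chromosome X had 227 at 48 h and 118 at 0 h, a log2 ratio of 0.94, the highest. Of the genes with most lost peaks, Slc16a12, Aldh1a1 and Plce1 lie on chromosome 19. The peaks of a chromosome come from 1 library per time, and its copy number in these cells was not measured here.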
